A study of Klebsormidium nitens with 6 samples.

Results

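In Klebsormidium nitens, a filamentous streptophyte alga, 78 genes that were already expressed without treatment had at least 4-fold more transcript after exposure to OPDA. They were chosen from the authors' normalized counts of 3 OPDA and 3 mock libraries. A gene was taken when its mock mean was at least 240 normalized counts (about 10 CPM), when its OPDA mean plus 1 was at least 4 times its mock mean plus 1, and when its lowest OPDA value lay above its highest mock value. Of 17152 genes in the normalized table, 10102 had a mock mean of at least 240, and 78 of these (0.772%) had such a ratio of means. The requirement that the groups do not overlap removed none of them. Because these same values chose the genes, their rise is given as a description and is not tested.

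The OPDA group was exposed to 25 µM OPDA in liquid Gamborg's B5 medium for 2 hours (replicates 1, 2 and 4), and the mock group was held in that medium for the same time with no OPDA named (replicates 1, 2 and 3). The labels do not name a carrier solvent for the mock or a strain. Both groups were discs of algae grown beforehand on plates, with no genetic change named for either, and each library averages over many filaments and cells. Whether the libraries of 1 group were separate cultures is not stated, so the spread between them, and every p-value below, may reflect technical variation. In such bulk samples, more transcript per cell and more cells that express a gene cannot be told apart.

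OPDA is a cyclopentenone oxylipin formed from polyunsaturated fatty acids of chloroplast membranes, and in vascular plants it is the precursor of jasmonates. Its ring carries a reactive electrophilic carbonyl that can bind thiols such as those of glutathione and of cysteines in proteins. In land plants part of the response to OPDA does not need COI1, the jasmonate receptor, and includes genes for heat shock proteins and for detoxification enzymes such as glutathione transferases. The series title places the experiment in that context, with tolerance to heat as the outcome of interest. The count files name genes by ID only, and the gene table of assembly ASM70883v1 gives locus tags without products for 77 of the 78 genes. No role is therefore assigned to any gene here, and the genes are ordered by the size and the pattern of their response.

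Library totals ranged from 23693021 to 24169072 counts. Over all 11752 genes tested, 54.0% differed between OPDA and mock, 3115 of them (26.5%) higher and 3233 (27.5%) lower in the OPDA libraries (adjusted p under 0.05 in edgeR's quasi-likelihood test). With scaling by total counts the split was 2232 higher and 4027 lower. All 78 genes were among those higher in OPDA, which the choice of genes makes nearly certain and which is no result about them. Mock replicate 1 stood apart from the other mock libraries in a subset of the 78 genes, and values without it are given where they differ.

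The 78 genes differed widely in the size of their rise. The median ratio of the OPDA to the mock mean was 6.60, with a range of 4.02 to 69.4, against a median of 1.01 over all 10102 genes with a mock mean of at least 240. There were 48 genes between 4-fold and 8-fold, 23 between 8-fold and 16-fold and 7 at 16-fold or more. From the lowest to the highest of these classes, the median OPDA mean was 7797, 12524 and 24967 normalized counts, and the median mock mean was 1400, 1076 and 999.8. The class medians thus differed more in OPDA than in mock. The classes were cut by the ratio itself and the rule keeps mock means at 240 or more, so part of that difference is built in. The lowest OPDA value was at least 2.65 times the highest mock value in every one of the 78 genes, and at least 4 times in 64 of them. The rule asks for a 4-fold ratio of means and for no overlap, so such gaps are largely built in. Over all 10102 genes, 32.6% had 3 OPDA values above all 3 mock values by any margin. No share over all genes is given for the margins of 2.65 and 4.

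**Figure D1:**
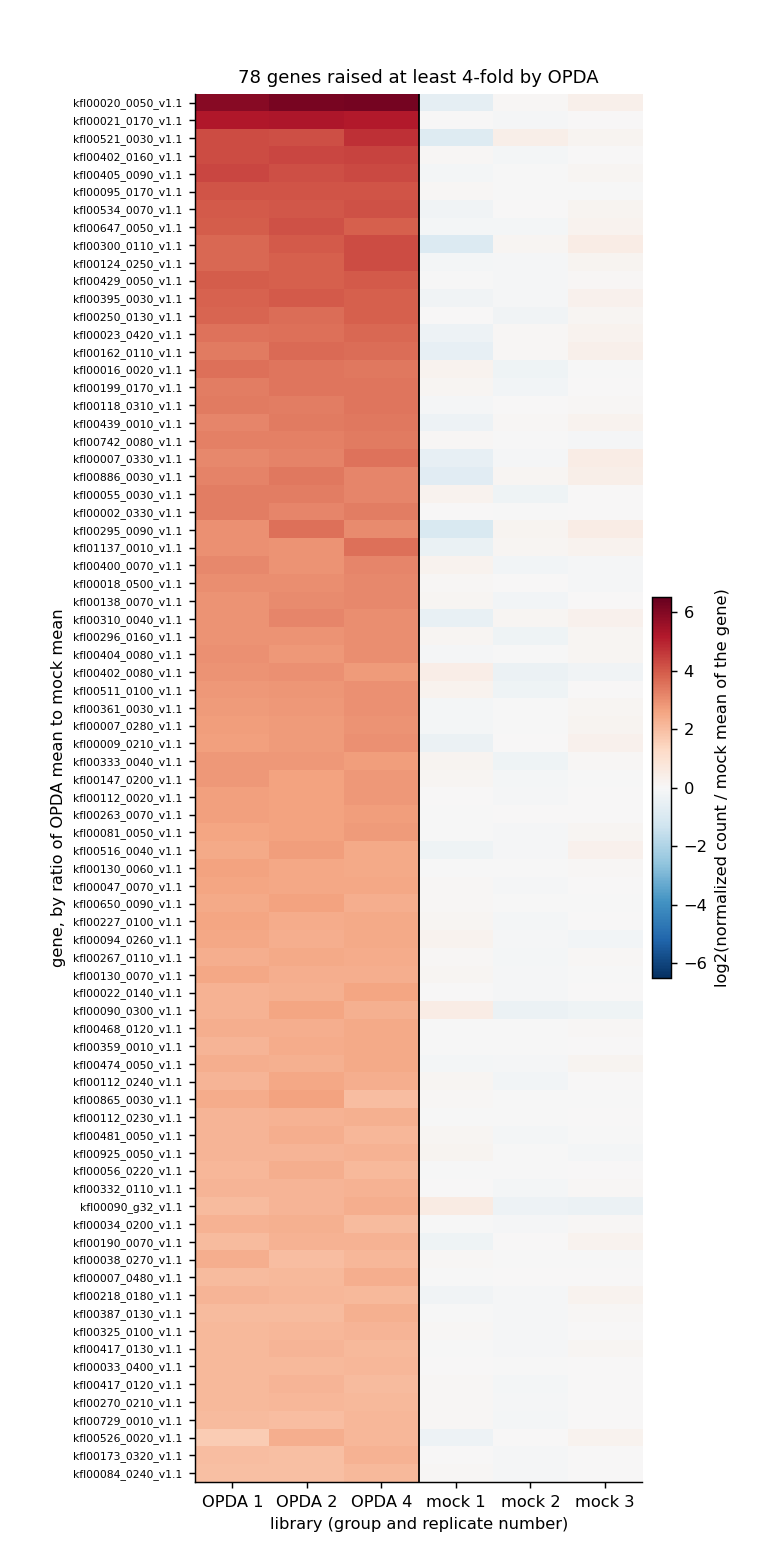
The 78 genes (rows, by falling ratio) in the 6 libraries (columns, OPDA left of mock); colour gives log2 of the normalized count over the gene's mock mean. All OPDA cells are red, the top row, kfl00020_0050_v1.1, is the darkest, and in the mock columns colour appears mainly in replicate 1 of a few genes.

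Genes with a ratio of at least 8 occurred at all levels of mock expression, but made up a smaller part of the genes at the higher levels. Among the 30 genes with a mock mean of 240 to 1000, the median ratio was 7.82 (range 4.24 to 69.4). Among the 37 genes with a mock mean of 1000 to 4000 it was 5.59 (range 4.02 to 19.3), and among the 11 genes at 4000 or more it was 6.37 (range 4.31 to 20.02). At the highest level, the ratio next below 20.02 was 10.5. From the lowest level to the highest, 15 of 30, 12 of 37 and 3 of 11 genes had a ratio of at least 8. Across the 78 genes, log2 ratio and log2 mock mean had Pearson's r = -0.17 and Spearman's rho = -0.22. This is a description over genes that share the same 6 libraries, and the mock mean enters both measures.

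**Figure D2:**
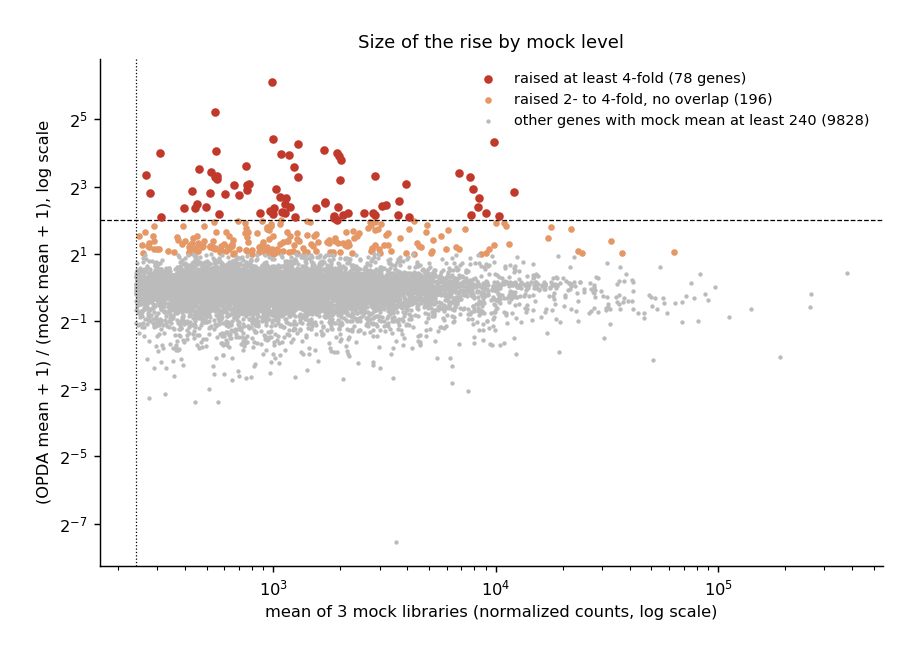
Ratio of OPDA to mock means (y axis, log scale) against the mock mean in normalized counts (x axis, log scale) for 10102 genes; the dashed line marks 4-fold and the dotted line a mock mean of 240. The 78 genes (red) lie at mock means from 268 to 12074, with ratios up to 69.4.

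The gene with the largest ratio was kfl00020_0050_v1.1 (locus tag KFL_000200050). It had 60057, 71989 and 73468 normalized counts in OPDA replicates 1, 2 and 4, against 668, 1049 and 1241 in mock replicates 1, 2 and 3. Every OPDA library was thus at least 48.4 times above every mock library, although mock replicate 1 was low. The ratio of means was 69.4, and 59.8 without mock replicate 1. Its fitted log2 fold change was 6.12 ± 0.28 (SE).

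The next in size, kfl00021_0170_v1.1 (KFL_000210170), was far more even between libraries. It had 20163, 20737 and 19532 normalized counts in OPDA and 560, 522 and 555 in mock. Its ratio was 36.9, and its fitted log2 fold change was 5.21 ± 0.08 (SE). The libraries of each group lay close together and the groups did not approach each other.

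The gene kfl00521_0030_v1.1 (KFL_005210030) reached a ratio of 21.2 with a wide spread in both groups. It had 19098, 18075 and 26489 normalized counts in OPDA, against 565, 1310 and 1124 in mock. OPDA replicate 4 was the high one and mock replicate 1 the low one. Without mock replicate 1 the ratio was 17.4, and the log2 fold change over all libraries was 4.41 ± 0.41 (SE).

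The 4 other genes above 16-fold were more even between libraries. The gene kfl00405_0090_v1.1 had 25824, 23449 and 25627 normalized counts in OPDA and 1189, 1267 and 1430 in mock, a ratio of 19.3. The gene kfl00095_0170_v1.1 had 29109, 28743 and 28574 in OPDA and 1750, 1647 and 1663 in mock, a ratio of 17.1. Its SD of log2 values between OPDA libraries, 0.014, was the smallest of the 78 genes. The gene kfl00534_0070_v1.1 had 8751, 8904 and 9698 in OPDA and 467, 569 and 616 in mock, a ratio of 16.5. The fourth, kfl00402_0160_v1.1, is described next, because it also held the most counts. Just below 16-fold, kfl00647_0050_v1.1 had 29882, 33880 and 28507 normalized counts in OPDA and 1760, 1781 and 2253 in mock.

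**Figure D3:**
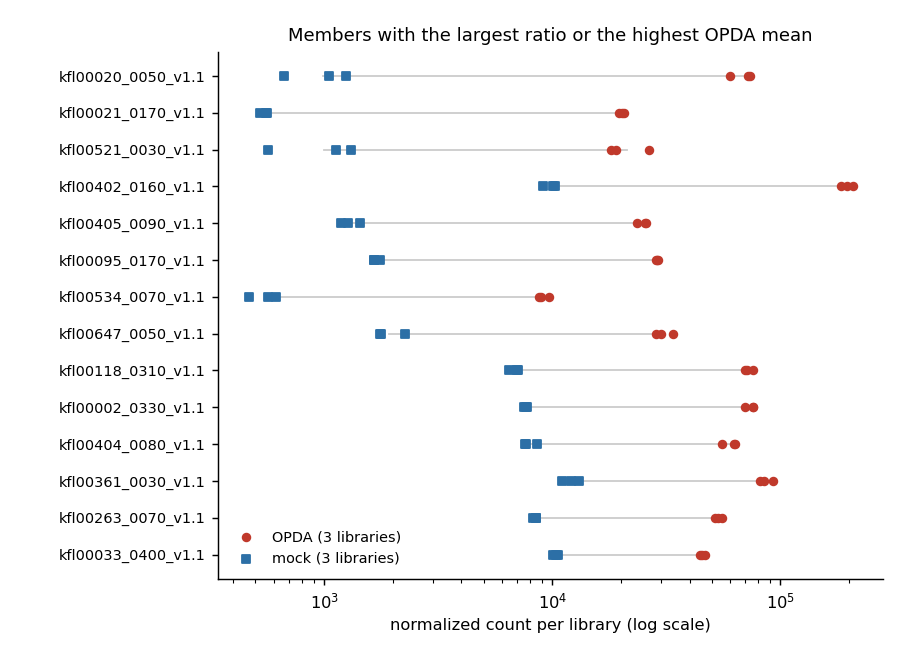
Normalized counts (x axis, log scale) in each OPDA library (circles) and mock library (squares) for the 14 genes with the 8 largest ratios or the 8 highest OPDA means; grey lines join the group means. No OPDA value overlaps a mock value, and the mock values of kfl00020_0050_v1.1 and kfl00521_0030_v1.1 are the most scattered.

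Together the 78 genes took 5.79%, 5.99% and 6.35% of all counts in OPDA replicates 1, 2 and 4, and 0.760%, 0.755% and 0.824% in mock replicates 1, 2 and 3. The means were 6.04% ± 0.281 in OPDA and 0.780% ± 0.039 in mock (SD, n = 3 each), a direction fixed by the choice of genes. Counts grow with the length of a transcript and no lengths were used, so shares of counts are not shares of molecules. The 5 genes with the most counts held 33.4% of the counts of the 78 in OPDA and the top 10 held 49.9%. Ranked anew by their mock counts, the top 5 held 27.4% in mock and the top 10 held 48.6%. The top gene of each group held 13.2% in OPDA and 6.65% in mock, so the shares were close only for the top 10.

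The largest single share belonged to kfl00402_0160_v1.1 (KFL_004020160). It had 185181, 195836 and 207180 normalized counts in OPDA, against 10255, 9080 and 10042 in mock, a ratio of 20.02. It alone took 0.798% of all counts in OPDA and 0.042% in mock. Unlike the other genes above 16-fold, it already had a mock mean in the top 4 of the 78.

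Of the next in OPDA counts, kfl00361_0030_v1.1 had 81116, 84941 and 93050 normalized counts in OPDA and 11007, 12046 and 13169 in mock. That mock mean, 12074 ± 1081 (SD, n = 3), was the highest of the 78 genes, and its ratio was 7.15. The gene kfl00002_0330_v1.1 averaged 73835 ± 3587 in OPDA and 7649 ± 147 in mock, and kfl00118_0310_v1.1 averaged 72254 ± 3047 in OPDA and 6855 ± 368 in mock (SD, n = 3 each). Both rose about as much, with ratios of 9.65 and 10.5. The gene kfl00404_0080_v1.1 averaged 60521 ± 4497 in OPDA and 7932 ± 527 in mock, and kfl00263_0070_v1.1 averaged 53608 ± 1811 in OPDA and 8414 ± 146 in mock (SD, n = 3 each), with ratios of 7.63 and 6.37. The gene kfl00033_0400_v1.1 averaged 45456 ± 1331 in OPDA and 10367 ± 245 in mock, and kfl00034_0200_v1.1 averaged 42085 ± 3338 in OPDA and 9069 ± 556 in mock (SD, n = 3 each). These last genes show that a high count in OPDA can rest on a high level without it, since their ratios were 4.38 and 4.64.

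At the 4-fold limit the ratios just inside and just outside were close. Just inside, kfl00084_0240_v1.1 had a ratio of 4.02, kfl00173_0320_v1.1 of 4.199 and kfl00526_0020_v1.1 of 4.24. Just outside were kfl00464_0060_v1.1 with 3.99, kfl00109_0340_v1.1 with 3.98 and kfl00173_0020_v1.1 with 3.97. For 14 of the 78 genes, the fitted log2 fold change minus 2 standard errors fell below 4-fold, so which genes stand on either side of the limit is uncertain for them. At the limit on mock level, the lowest mock means inside were 268 for kfl00439_0010_v1.1, 277 for kfl00007_0280_v1.1 and 307 for kfl00300_0110_v1.1. The nearest outside were kfl00482_0070_v1.1 at 189.5, kfl01135_0020_v1.1 at 178 and kfl00138_0020_v1.1 at 178, with ratios of 4.52, 6.88 and 11.9.

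The genes were also read in libraries that took no part in choosing them. The rule was applied to 5 libraries at a time, and the library left out was set against the 3 libraries of the other group, which did take part in the choice, so these ratios are only partly independent of it. Without OPDA replicates 1, 2 and 4 in turn, 83, 79 and 79 genes were chosen, and in the left-out OPDA library 83, 79 and 79 of them lay above all mock values. Relative to the mock mean, the left-out library reached 4-fold in 76, 75 and 75 of these genes, with median ratios of 6.20, 6.22 and 6.85. In the libraries that chose them the median ratios were 6.38, 6.63 and 6.26. Without mock replicates 1, 2 and 3 in turn, 81, 78 and 82 genes were chosen, and in the left-out mock library all of them lay below all OPDA values. The OPDA mean was at least 4 times the left-out mock library in 74, 77 and 75 of them, with median ratios of 6.08, 6.84 and 6.21, where the choosing libraries gave 6.31, 6.38 and 6.55. The lowest ratio seen in any left-out library was 2.76. Each time 76 to 78 of the genes chosen were among the 78. Each list used 5 of the 6 libraries that chose the 78, and the same rule, so this overlap is largely built in. No matching counts over all expressed genes are given, so these counts are a description and no test of the rise. All 6 libraries come from the same experiment, so these values speak only to the libraries at hand.

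The spread between libraries differed among the 78 genes and between the groups. The median SD of log2 normalized counts was 0.096 between OPDA libraries and 0.132 between mock libraries. For the other 10024 genes with a mock mean of at least 240 the medians were 0.084 in OPDA and 0.077 in mock. Among these, the 196 genes raised 2-fold to 4-fold without overlap had medians of 0.104 in OPDA and 0.111 in mock. Counting error alone would give a median of 0.015 in OPDA and 0.041 in mock for the 78 genes. The larger mock spread was present at both levels of expression: it was 0.233 in the 30 genes with a mock mean of 240 to 1000, against 0.085 in other genes at that level, and 0.099 in the 48 genes at 1000 or more, against 0.071. These are descriptions over genes measured in the same 3 mock libraries. The mock values also entered the rule, where a low one lowers the mock mean and adds to the ratio.

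The genes with the widest spread were few. Between mock libraries the SD of log2 values was highest in kfl00295_0090_v1.1 (0.772), kfl00300_0110_v1.1 (0.706), kfl00521_0030_v1.1 (0.646) and kfl00886_0030_v1.1 (0.588). The gene kfl00295_0090_v1.1 had 4401, 6694 and 4620 normalized counts in OPDA, against 278, 627 and 765 in mock. The gene kfl00300_0110_v1.1 had 4077, 4857 and 5714 in OPDA, against 165, 331 and 426 in mock, and kfl00886_0030_v1.1 had 11878, 14004 and 11690 in OPDA, against 773, 1392 and 1693 in mock. In each of these 4 genes mock replicate 1 was the lowest mock library. Between OPDA libraries the SD was highest in kfl01137_0010_v1.1 (0.383), which had 15530, 15171 and 24287 normalized counts in OPDA and 1470, 2206 and 2329 in mock. Next were kfl00526_0020_v1.1 (0.369), with 982, 1621 and 1380 in OPDA and 249, 316 and 371 in mock, kfl00295_0090_v1.1 (0.331) and kfl00865_0030_v1.1 (0.313). The last had 2313, 2708 and 1764 in OPDA and 466, 429 and 432 in mock. The high OPDA library was not the same one in these genes: it was replicate 4 in kfl01137_0010_v1.1 and replicate 2 in the other three.

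Mock replicate 1 lay at least 1.5-fold below the mean log2 value of mock replicates 2 and 3 in 9 of the 78 genes (11.5%), and at least 1.5-fold above it in 3 (3.85%). Among the other 10024 genes with a mock mean of at least 240, it was that low in 19 (0.190%) and that high in 96 (0.958%). Of 196 genes raised 2-fold to 4-fold without overlap, 5 (2.55%) were that low and 1 (0.510%) that high. The 1.5-fold limit, and with it the genes counted, was chosen after the values had been seen. No such count was made for mock replicates 2 and 3. The 9 low genes were the 4 with the widest mock spread named above, kfl00020_0050_v1.1, kfl00162_0110_v1.1, kfl00007_0330_v1.1, kfl00310_0040_v1.1 and kfl01137_0010_v1.1. All 9 had a ratio of at least 8, and 7 of them kept one of at least 8 without mock replicate 1, with ratios of 8.08 to 59.8. Without that library kfl00295_0090_v1.1 had a ratio of 7.52 and kfl00310_0040_v1.1 of 7.23. A low value in mock replicate 1 lowers the mock mean and so adds to the ratio by construction. The 3 genes high in mock replicate 1 were kfl00402_0080_v1.1, kfl00090_0300_v1.1 and kfl00090_g32_v1.1, all between 4-fold and 8-fold. Without mock replicate 1 their ratios were 9.10, 6.51 and 5.98. Over all 78 genes, 77 still had a ratio of at least 4 without that library.

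**Figure D4:**
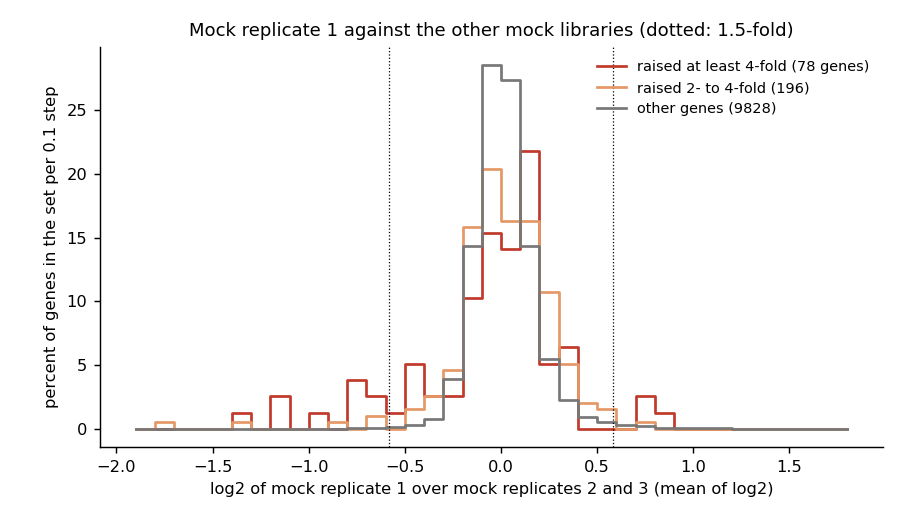
Percent of genes (y axis) by log2 of mock replicate 1 over the mean log2 value of mock replicates 2 and 3 (x axis, steps of 0.1), for the 78 genes, the 196 genes raised 2-fold to 4-fold and other genes with a mock mean of at least 240. Dotted lines mark 1.5-fold, and 9 of the 78 genes lie left of the left line.

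Libraries also took unequal parts in which replicate was highest. OPDA replicate 4 was the highest OPDA library in 44 of the 78 genes (56.4%), replicate 2 in 24 and replicate 1 in 10. Among the other 10024 genes replicate 4 was highest in 31.9%. The 196 genes raised 2-fold to 4-fold were like the 78 in this, with replicate 4 highest in 112 (57.1%). In mock, replicate 3 was highest in 39 of the 78 genes, replicate 1 in 37 and replicate 2 in 2, against 31.9%, 38.7% and 29.3% of the other genes. The 196 genes leaned the same way, with mock replicate 3 highest in 46.4%, replicate 1 in 43.4% and replicate 2 in 10.2%. With scaling by total counts, OPDA replicate 4 was highest in 47 of the 78 genes and in 37.9% of the others, and mock replicate 3 in 47 and in 36.5%. On the normalized counts, mock replicate 2 was the lowest mock library in 41 of the 78 genes, replicate 1 in 31 and replicate 3 in 6. Among the other 10024 genes these counts were 2982, 3536 and 3506. What sets these libraries apart was not tested.

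The 78 genes lay on 70 scaffold numbers, and 6 scaffolds carried more than 1 of them, 14 genes in all. In the gene order of assembly ASM70883v1, 3 pairs were direct neighbours. The pair kfl00130_0060_v1.1 and kfl00130_0070_v1.1 had ratios of 5.77 and 5.30. The first of them had 10572, 9556 and 9362 normalized counts in OPDA and 1654, 1684 and 1770 in mock, and its neighbour had 6679, 6130 and 6103 in OPDA and 1290, 1128 and 1148 in mock. The pair kfl00417_0120_v1.1 and kfl00417_0130_v1.1 averaged 8141 ± 468 and 9115 ± 439 in OPDA, against 1863 ± 154 and 2058 ± 147 in mock (SD, n = 3 each), with ratios of 4.37 and 4.43. The pair kfl00112_0230_v1.1 and kfl00112_0240_v1.1 averaged 4626 ± 168 and 2051 ± 193 in OPDA, against 962 ± 27.7 and 397 ± 43.5 in mock (SD, n = 3 each), with ratios of 4.80 and 5.15. Both genes of each pair thus had ratios of like size, all below 8-fold. On the same scaffold as the last pair, kfl00112_0020_v1.1 lay with 19 genes between.

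On scaffold 00090, kfl00090_0300_v1.1 and kfl00090_g32_v1.1 had levels of similar size in both groups. The first had 9388, 11639 and 9584 normalized counts in OPDA and 2722, 1499 and 1632 in mock. The second had 11674, 13090 and 14348 in OPDA and 4052, 2193 and 2168 in mock. Both were highest in mock replicate 1, by 0.80 and 0.89 on the log2 scale over the other mock libraries. The ID with a g number has no locus tag in the gene table, so its place on the scaffold is not given, and reads shared by near-identical or overlapping genes could not be examined.

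The genes next to the 78 are described without those that met the rule themselves, so their values are not independent of it. Of 139 such neighbours, 108 were tested, and 52 of these (48.1%) were higher and 25 (23.1%) lower in OPDA at an adjusted p under 0.05 in the edgeR fit, where 26.5% and 27.5% of all tested genes were. Their median log2 fold change was 0.18, against 0.00447 over all tested genes. At least 2-fold higher were 13 of the 108 (12.0%), where 3.58% of all tested genes were. The 13, and the 52 higher genes, include some with few counts in mock. These passed the filter on low counts with the help of their OPDA values, as described below, which adds to both shares. With 1 gene between, 24 of 105 tested genes (22.9%) were higher, and with 2 genes between, 25 of 85 (29.4%), both near the share of all genes. Neighbours of the 196 genes raised 2-fold to 4-fold were higher in 133 of 275 cases (48.4%). That count left out the 196 but kept any of the 78 that lay beside them, which are higher by choice. It is thus not built like the share beside the 78 genes, and the shares cannot be compared directly. Strand is not given for the counts or in the gene table, and the part of reads counted across adjoining or overlapping genes was not tested.

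**Figure D5:**
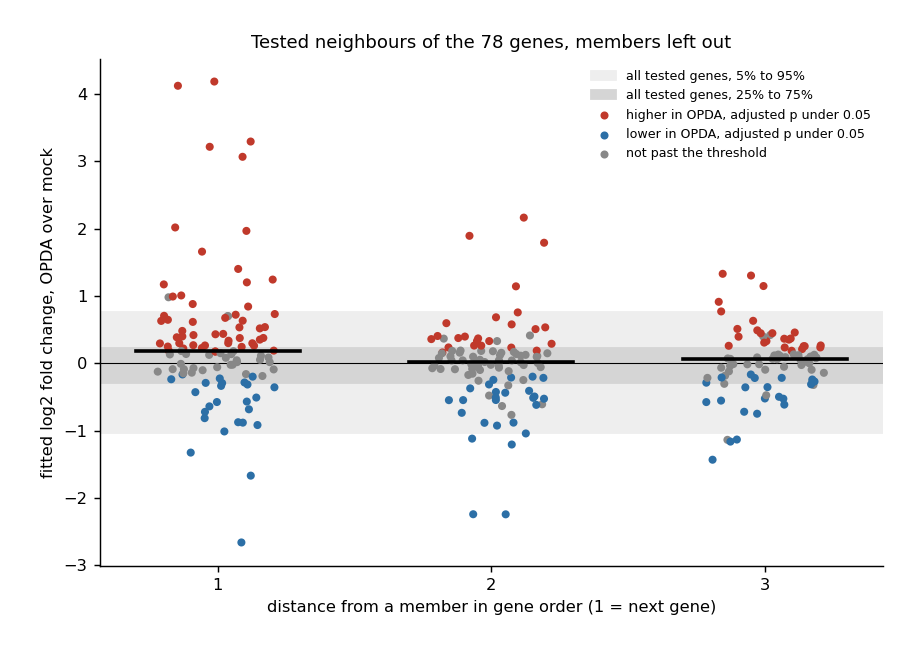
Fitted log2 fold change, OPDA over mock (y axis), of tested genes at 1, 2 and 3 positions from one of the 78 genes (x axis), with the 78 left out; black bars are medians and grey bands hold the central 50% and 90% of all tested genes. At distance 1 the median is 0.18 and 6 genes lie at 2 or above, some of them with few counts in mock.

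A fitted rise of at least 4-fold was found in 6 tested neighbours. Their mock means, 2.89 to 149.9 normalized counts, lie under 240 because of the rule, since a neighbour at that level with such a ratio would be among the 78. In 4 of the 6 the mock mean was at most 15.4, and none of these 4 reached 10 counts in every mock library, so they passed the filter on low counts with the help of their OPDA values. The gene kfl00055_0030_v1.1 had 5436, 5538 and 4906 normalized counts in OPDA and 640.5, 446 and 554 in mock. On one side of it kfl00055_0020_v1.1 had 2338, 2348 and 2549 in OPDA and 150, 116 and 132 in mock, and its log2 fold change was 4.18 ± 0.09 (SE; adjusted p = 5.28e-12 by edgeR). On its other side kfl00055_0035_v1.1 had 1513, 1536 and 1358 in OPDA and 189, 119 and 142 in mock, and its log2 fold change was 3.29 ± 0.13 (SE; adjusted p = 1.78e-08 by edgeR). These 3 genes in a row thus had ratios of means of 9.67, 18.05 and 9.74. Beyond kfl00055_0020_v1.1, the next gene, kfl00055_0010_v1.1, had 3922, 3687 and 4256 in OPDA and 1245, 929 and 1023 in mock, a ratio of 3.71. Beyond kfl00055_0035_v1.1, kfl00055_0040_v1.1 had 0 counts in every library. Around the gene with the largest ratio, kfl00020_0040_v1.1 had 2537, 3039 and 2512 in OPDA and 662, 617 and 790 in mock, with log2 fold change 1.97 ± 0.11 (SE; adjusted p = 1.21e-07 by edgeR). On the other side, kfl00020_0060_v1.1 had 1265, 1232 and 1281 in OPDA and 489, 550 and 556 in mock, with log2 fold change 1.24 ± 0.07 (SE; adjusted p = 1.62e-08 by edgeR). Both flanks of kfl00020_0050_v1.1 thus rose, each by much less than the gene between them.

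Neighbours could also move the other way. The gene kfl00023_0420_v1.1 had 8638, 8875 and 10105 normalized counts in OPDA and 597, 784 and 871 in mock. Its neighbour kfl00023_0430_v1.1 had 200, 172 and 218 normalized counts in OPDA and 1156, 1340 and 1235 in mock, and its log2 fold change was -2.66 ± 0.09 (SE; adjusted p = 2.24e-10 by edgeR). In all, 4 of the 108 tested neighbours were at least 2-fold lower, where 625 of all 11752 tested genes were, so this is no feature of the neighbours. The neighbours named here were picked with their values in view.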

How the data were processed

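The authors deposited raw read counts per gene for each of the 6 libraries (17153 gene IDs) and a signal table of counts divided by 1 size factor per library (17152 genes). The submitters' processing notes name Trim Galore, HISAT2, HTSeq and DESeq2. No version, genome build, counting mode or strand setting is given in the sources used here. The size factors were 0.962 to 1.04, and 100% of the table's values times that factor came out whole within 1e-06.

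The rule and all per-library values used the normalized table. Tests used edgeR 4.0.16 (limma 3.58.1, R 4.3.3) on raw counts of all 6 libraries: TMM scaling, filterByExpr with a minimum count of 10, robust quasi-likelihood F test, no covariate, Benjamini-Hochberg adjustment over 11752 genes. Each standard error is log2 fold change over the square root of F. Neighbours follow the order of genes in ASM70883v1. DESeq2 1.42.0, other scalings and filters, a replicate block and leaving out each library were alternatives. Figures and counts used Python 3.11.15.

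The genes described and the lists were chosen with earlier results of these data known. Named genes are those with the 8 highest OPDA means, the 8 largest ratios, the 4 highest mock means, the 3 on each side of each limit, the 4 widest spreads in each group, and genes next to each other; others are named as chosen after their values were seen. Planned comparisons of protein and promoter sequences and of gene descriptions were not run, because none were used here.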

Additional observations from a re-analysis of the deposited data

How the results depend on the processing

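Alternatives were compared for 12 of the counts and shares given in the report, and other counts were not part of this comparison. All 103 alternative values stayed within 1.5 times the reported count or within 1 SD of the reported share. All 465 alternative log2 fold changes of 31 named genes among the 78 kept their sign and an adjusted p under 0.05, which their choice makes likely. The rule found 76 genes with scaling by total counts, all among the 78, 69 with a mock mean of at least 480 and 87 with at least 120. Leaving out 1 library gave 78 to 83 genes. With total counts, 26 genes rose at least 8-fold in place of 30. Tested neighbours higher in OPDA ranged from 44 to 55 over 15 alternatives (40.7% to 49.1%, where 19.0% to 27.3% of all tested genes were). The labels use replicate numbers 1 and 2 in OPDA and in mock without tying them to a shared culture or day. A fit with a replicate block, which rests on replicates 1 and 2 only, passed 5023 genes in place of 6348, among them all 78, and 44 neighbours were higher. Over 10024 other genes, libraries with 1 number in common had correlated deviations of 0.057 and -0.073, within the range of differently numbered ones, -0.101 to 0.105. Counts recovered from the normalized table, an alternative chosen later with the data in view, called 6350 genes and 52 neighbours. Sequence-based results, with their alternatives, were not run. Depth was not varied.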
